A study of Homo sapiens with 9 samples.

Results

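AUTS2, CNTNAP2, CSF2RA, BCL11B and PLCB4 are 5 protein-coding genes known from neurons, blood cells and receptor signalling, and their RNA was read in A431 p53 KO cells while it was near or at 0 counts in both kinds of control cells. They were chosen by their counts, at least 20 in each of the 3 p53 KO libraries and 3 or fewer in each of the 3 parental and 3 Ctrl libraries, and by what the genes are known for. Of the 58051 genes in the table, 11 met this count rule (0.0189%), and these are 5 of the 11. Because the counts chose the genes, their difference between p53 KO and control cells is given as a description, with no test.

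A431 is an epidermoid carcinoma cell line that carries an endogenous mutant p53. The parental group was unmodified A431 (mutp53). The Ctrl group (mutp53) was a stable A431 line made with the empty-vector CRISPR construct, and the p53 KO group a stable A431 line made with a CRISPR construct against p53, so that both engineered lines had been through transfection and the parental cells had not. Per the labels, cells were taken from single colonies, grown in DMEM with 10% FBS and harvested 48 hours after settling, so that each line may be 1 clone, and knockout and clone cannot be told apart. Each group had 3 poly(A) RNA libraries with between 19783778 and 29840452 counts on genes. Nothing states that the 3 were separate cultures, and p-values then measure only the spread between these libraries, which may be technical.

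The proteins of these genes belong to different systems. AUTS2 is a nuclear regulator of neurodevelopment that joins a variant Polycomb repressive complex 1 (PRC1) and can turn it towards activation, and it is known mainly from the developing brain. CNTNAP2 (CASPR2) is a neurexin-family adhesion protein of axons that clusters Kv1 potassium channels beside the node of Ranvier, and the gene is a known target of the repressor FOXP2 in the brain. CSF2RA is the ligand-binding alpha chain of the GM-CSF receptor, found on myeloid cells, which signals only together with the common beta chain CSF2RB through JAK2 and STAT5. BCL11B is a zinc-finger transcription factor that sets T lymphocyte identity and is also used in neurons and in skin, where it works with the chromatin complexes NuRD and BAF. PLCB4 is a phospholipase C of brain and retina that Gq-coupled receptors switch on, which releases inositol trisphosphate and diacylglycerol and so calcium and protein kinase C signals.

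The sequences just upstream of 4 of the genes are shown because these genes were read in the same libraries while their upstream bases differ. Each is the 250 bases before the start site given by RefSeq on GRCh38.p14, written 5′ to 3′ on the strand of the gene, with every CG dinucleotide in capitals. The gene models of GENCODE given further on begin upstream of the RefSeq start for AUTS2, CNTNAP2 and CSF2RA, so that these windows lie partly or wholly inside them. The AUTS2 window lies at chr7:69598225-69598474 (plus strand), that of CNTNAP2 at chr7:146116551-146116800 (plus strand), CSF2RA at chrX:1268564-1268813 (plus strand) and BCL11B at chr14:99272198-99272447 (minus strand).
AUTS2: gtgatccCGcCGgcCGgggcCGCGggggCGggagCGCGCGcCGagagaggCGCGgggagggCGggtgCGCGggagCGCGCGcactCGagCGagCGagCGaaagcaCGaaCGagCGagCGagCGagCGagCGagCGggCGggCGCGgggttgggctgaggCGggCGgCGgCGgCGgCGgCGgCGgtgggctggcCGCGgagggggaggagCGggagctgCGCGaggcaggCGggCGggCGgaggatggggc
CNTNAP2: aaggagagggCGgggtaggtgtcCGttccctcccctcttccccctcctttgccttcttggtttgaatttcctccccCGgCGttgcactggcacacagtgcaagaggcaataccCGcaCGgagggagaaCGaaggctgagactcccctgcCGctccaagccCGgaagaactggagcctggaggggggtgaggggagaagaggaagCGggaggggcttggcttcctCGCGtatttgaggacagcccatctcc
CSF2RA: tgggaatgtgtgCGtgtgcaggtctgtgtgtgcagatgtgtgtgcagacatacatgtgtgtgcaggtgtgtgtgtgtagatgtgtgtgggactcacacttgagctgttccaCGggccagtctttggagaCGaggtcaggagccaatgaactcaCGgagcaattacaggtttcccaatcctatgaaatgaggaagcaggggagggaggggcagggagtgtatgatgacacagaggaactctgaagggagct
BCL11B: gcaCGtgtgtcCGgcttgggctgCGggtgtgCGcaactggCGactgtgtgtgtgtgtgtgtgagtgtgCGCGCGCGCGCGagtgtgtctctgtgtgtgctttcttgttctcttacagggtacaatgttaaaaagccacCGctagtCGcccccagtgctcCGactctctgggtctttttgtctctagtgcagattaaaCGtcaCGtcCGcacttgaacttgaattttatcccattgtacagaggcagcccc

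The AUTS2 window held 49 CG dinucleotides and only 0.148% of 35093 promoter windows of the same length held more. BCL11B had 17 CG (36.8% of windows held more), CNTNAP2 had 12 (46.6%) and CSF2RA had 4 (65.7%), against a median of 11 over all windows. Searched on both strands, GGGCGG, the GC box, occurred 6 times upstream of AUTS2 and 1 time upstream of CNTNAP2, and was not in the other windows, while 42.6% of all windows held it. Its letters include a CG and so add to that number. CCAAT occurred 2 times upstream of CSF2RA and in none of the other 3 windows, and 32.0% of all windows held it. TATAAA (10.7% of all windows), the AP-1 motif TGANTCA (6.57%) and the p53 half-site (5.58%) were in none of the 4 windows. The 4 windows thus had none of these motifs in common and differed in base composition, and which start sites the cells used was not measured.

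Every adjusted p here comes from the quasi-likelihood test of edgeR, adjusted by Benjamini-Hochberg over all genes tested. Ctrl replicate 1 stood apart from its group, with a mean correlation of 0.9895 across genes to the other Ctrl libraries, where every other library had 0.9928 or more within its group. The larger changes in the number of calls without it are given too.

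AUTS2 had the most counts. The p53 KO libraries held 191, 187 and 118, parental libraries 2, 2 and 1, and each Ctrl library 0. The lowest p53 KO library was thus far above the highest control library. CNTNAP2 had 59, 48 and 40 counts in p53 KO libraries and 0 in each of the 6 control libraries. CSF2RA had 142, 94 and 85 counts in p53 KO libraries, 0, 0 and 1 in parental and 1, 0 and 0 in Ctrl libraries. At this depth a count of 0 is not told apart from up to 3 counts, a limit that covers counting error only. BCL11B, the lowest of the genes, had 27, 35 and 23 counts in p53 KO libraries and 0 in all control libraries. The smallest of these, 23, has an exact 95% Poisson interval of 14.6 to 34.5. PLCB4 had 127, 134 and 87 counts in p53 KO libraries, 1, 1 and 0 in parental and 0 in each Ctrl library.

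Summed over the 5 genes, the p53 KO libraries held 546, 498 and 353 counts, the parental libraries 3, 3 and 2, and the Ctrl libraries 1, 0 and 0. In bulk RNA, a few cells with much of an RNA and all cells with little of it cannot be told apart, and these levels may be either.

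**Figure D1:**
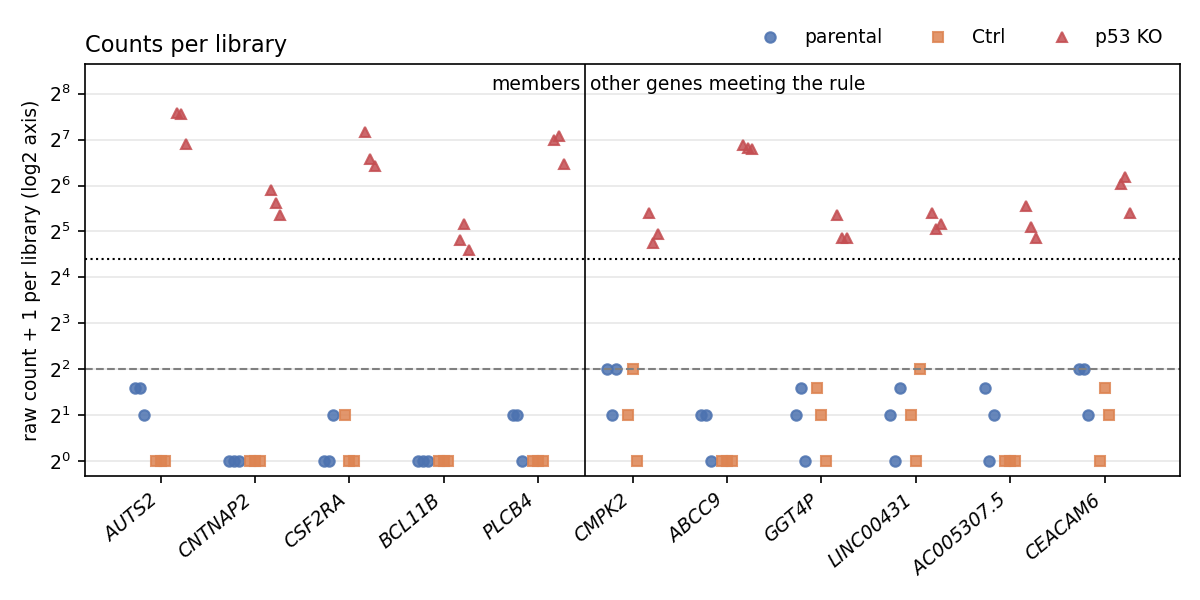
Raw counts plus 1 on a log2 axis for the 5 genes (left of the line) and the 6 other genes that meet the count rule, 1 point per library in parental, Ctrl and p53 KO groups. The dotted line marks 20 counts and the dashed line 3 counts, and all 3 p53 KO libraries of each gene lie above the first and all 6 control libraries at or below the second, as the rule required.

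As CPM (counts scaled to library size by TMM), the p53 KO level was 6.46 ± 0.630 (SD, n = 3) for AUTS2, 4.56 ± 0.467 for PLCB4, 4.18 ± 0.595 for CSF2RA, 1.93 ± 0.0903 for CNTNAP2 and 1.13 ± 0.213 for BCL11B. These were low levels. Among the 14513 genes tested, AUTS2 stood at percentile 31.6 of p53 KO levels, PLCB4 at 28.2, CSF2RA at 27.6, CNTNAP2 at 20.5 and BCL11B at 15.5. Set against a floor of 3 counts in the control library where that floor is highest, the p53 KO level of AUTS2 was at least 42.2-fold higher, that of PLCB4 at least 29.8-fold, that of CSF2RA at least 27.4-fold, that of CNTNAP2 at least 12.6-fold and that of BCL11B at least 7.36-fold. These bounds take the mean p53 KO level and the floor of 3 counts as they stand, and leave out counting error in both. Since every control group was at or under the floor, the order of these bounds is the order of the p53 KO levels and says nothing of the order of the true changes.

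Per length the order was another. Divided by the summed exon length of each gene in GENCODE release 44, CSF2RA had the highest level, 1.02 ± 0.145 CPM per kb of exon (SD, n = 3). That length joins the exons of all annotated transcripts, from 3 in BCL11B and 18 in CSF2RA to 61 in PLCB4. It came to 4093 bases in CSF2RA and 24887 in AUTS2. Which transcripts the cells used was not measured, so that the order depends on this choice of length. AUTS2 had 0.260 ± 0.0253, PLCB4 0.211 ± 0.0216, BCL11B 0.132 ± 0.0250 and CNTNAP2 0.118 ± 0.00551 on this scale. The libraries of AUTS2 and PLCB4 overlapped on this scale, as did those of BCL11B and CNTNAP2, while CSF2RA lay above both pairs, and AUTS2 and PLCB4 above BCL11B and CNTNAP2, in every library. The spread between the 3 p53 KO libraries was close to that of counting alone in AUTS2, PLCB4 and BCL11B, above it in CSF2RA and below it in CNTNAP2. With 3 libraries such a spread is known only roughly. Its coefficient of variation was 9.76% in AUTS2 where counting gives 7.97%, 10.3% in PLCB4 (counting 9.46%), 14.2% in CSF2RA (9.91%), 18.9% in BCL11B (19.1%) and 4.68% in CNTNAP2 (14.5%).

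The genes lie on 4 chromosomes and differ in length. In GENCODE release 44 on GRCh38, AUTS2 spans chr7:69598296-70793506 and CNTNAP2 chr7:146116002-148420998, both on the plus strand. PLCB4 spans chr20:9067825-9504593 on the plus strand, BCL11B chr14:99169287-99272197 on the minus strand and CSF2RA chrX:1268800-1310381 on the plus strand, within the pseudoautosomal region PAR1 that X and Y share. CNTNAP2, of 2305 kb, was longer than every gene tested that was found in the annotation. AUTS2, of 1195 kb, was exceeded by 9 of these 14397 genes, and PLCB4, of 437 kb, by 172 of them. BCL11B, of 103 kb (2347 genes longer), and CSF2RA, of 41.6 kb (5475 genes longer), were nearer to the median of 27.1 kb.

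**Figure D2:**
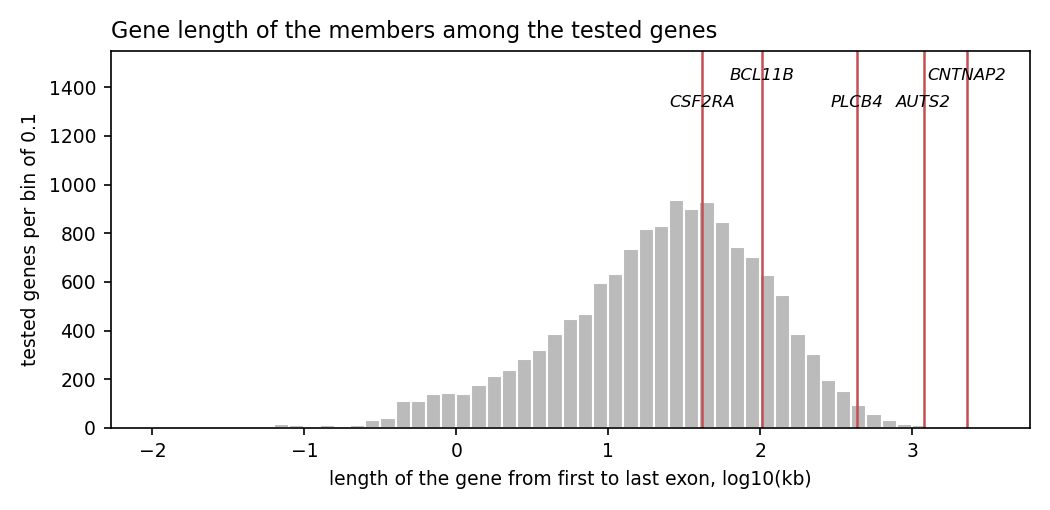
Number of tested genes by length from first to last exon, in kb on a log10 axis, with lines at the lengths of the 5 genes. CNTNAP2 (2305 kb), AUTS2 (1195 kb) and PLCB4 (437 kb) lie in the upper tail, and CSF2RA (41.6 kb) lies near the median of 27.1 kb.

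Other gene models share the span of CNTNAP2 (12 models), CSF2RA (2) and BCL11B (1), and none shares that of AUTS2 or PLCB4. Of the 12 within CNTNAP2, 2 had any count and none had more than 3 in a library. The strand setting of the authors' counting is not given in the sources used here.

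Of the 6 other genes that met the rule, ABCC9, a subunit of ATP-sensitive potassium channels, had 117, 111 and 110 counts in p53 KO libraries and 1, 1 and 0 in parental and 0 in Ctrl libraries. CEACAM6, a cell adhesion protein, and CMPK2, an interferon-induced mitochondrial kinase, came to 41 to 72 and 26 to 41 counts in p53 KO libraries, with at most 3 in any control library. GGT4P, LINC00431 and AC005307.5, which are pseudogenes or non-coding, had 28 to 46 counts in p53 KO libraries. The same rule turned round gave 1 gene on only in parental cells, ADD2 (0.00172% of genes), and 0 genes on only in Ctrl cells. Just inside the rule stood BCL11B, whose lowest p53 KO library held 23 counts. Just outside it, GAS7 missed with 18 counts and CSAG3 with 16 in their lowest p53 KO libraries, and B3GNT7, GXYLT2 and CEACAM5 missed with 4, 5 and 4 counts in their highest control libraries.

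The genes whose levels followed the mean profile of the 5 most closely over the 9 libraries were IFIT3 (Pearson r = 0.998 on log2(CPM + 1)), RSAD2 (0.996), TCP1 (0.995), COL17A1 (0.993) and DPYSL2 (0.993). These are an interferon-induced protein, an antiviral enzyme, a chaperonin subunit, a hemidesmosome collagen and a cytosolic protein of axon growth. The profile is a contrast of 3 p53 KO libraries with 6 others, and any gene that follows that contrast scores high. RSAD2 was read in every library, at 93.4 ± 5.67 CPM in p53 KO, 2.21 ± 0.151 in parental and 1.24 ± 0.360 in Ctrl cells (SD, n = 3), unlike the 5 genes.

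To see the company these genes keep, their families, partners and downstream genes were gathered in 9 lists of 152 genes. Of these, 106 passed the filter on low counts and were tested. Against parental cells, 20 of the 106 were called in p53 KO cells (18.9%), 11 higher and 9 lower, where 18.1% of all genes tested were called, 9.77% higher and 8.36% lower. Against Ctrl cells, 45 were called (42.5%), 30 higher and 15 lower, where 29.2% of all genes were called, 15% higher and 14.2% lower. Between the controls, 33 were called (31.1%), 10 higher and 23 lower in Ctrl than in parental cells, where 20.3% of all genes were called, 10.6% higher and 9.69% lower. With a log2 fold change beyond 1.5 in size required as well, 4, 7 and 5 of the 106 were called in the 3 comparisons, where 1.95%, 3.29% and 1.94% of all genes were. Over the 106 genes, the median log2 fold change was -0.01 relative to parental and 0.03 relative to Ctrl cells, where all genes tested had medians of 0.01 in both. Without Ctrl replicate 1 the numbers were 42 against parental and 55 against Ctrl cells, without p53 KO replicate 3 the first fell to 9, and without p53 KO replicate 2 the second fell to 29. The share against parental cells was therefore close to the background. All 3 comparisons share libraries in pairs.

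AUTS2 has 2 close relatives, FBRSL1 and FBRS, and both were expressed in every library. FBRSL1 had 904 to 1062 counts in p53 KO, 786 to 1108 in parental and 920 to 1151 in Ctrl libraries, and its log2 fold change was -0.02 against parental (SE 0.11, adjusted p = 0.916) and -0.14 against Ctrl cells (SE 0.11, adjusted p = 0.363). FBRS gave 0.01 (SE 0.10, adjusted p = 0.948) and -0.03 (SE 0.10, adjusted p = 0.826). Neither passed the test, and their libraries overlapped between the groups. All 12 genes of the AUTS2 family and variant PRC1 were tested, and edgeR called 0 of them against parental cells (3 had an unadjusted p under 0.05, DESeq2 called 0, and 4 were called without Ctrl replicate 1). Against Ctrl cells, where 29.2% of all genes tested were called, 3 were called, all higher. These were PCGF5, a core subunit of the variant complex (0.62, SE 0.15, adjusted p = 0.00834), and the casein kinase 2 subunits CSNK2A2 (0.27) and CSNK2A1 (0.20), named after their values were seen. CSNK2A2 was also called lower in Ctrl than in parental cells (-0.29, adjusted p = 0.0193), a call lost without any 1 of 3 libraries. The casein kinase calls were lost without p53 KO replicate 2 (CSNK2A2 adjusted p = 0.0561 to 0.0684 over that library and Ctrl replicate 2; CSNK2A1 0.0569 to 0.107 over 7 libraries, all but Ctrl replicates 1 and 3).

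Of the 24 genes around CNTNAP2, 5 were tested and 12 had no count in any library, among them CNTN1, CNTN2, KCNA1 and KCNA2, the contactins and channels of its axonal complex. CNTNAP1, the paranodal relative, had 38, 36 and 28 counts in p53 KO, 58, 45 and 34 in parental and 14, 15 and 18 in Ctrl libraries. Parental and p53 KO libraries overlapped, and both lay above the Ctrl libraries. The log2 fold change was -0.46 in p53 KO relative to parental (SE 0.19, adjusted p = 0.118) and 1.07 relative to Ctrl cells (SE 0.23, adjusted p = 0.00442). CNTNAP3 gave 0.26 (SE 0.15, adjusted p = 0.275) and 0.85 (SE 0.16, adjusted p = 0.002), and CNTNAP3B gave 0.46 (SE 0.27, adjusted p = 0.261) and 0.90 (SE 0.28, adjusted p = 0.0328). CNTNAP3 and CNTNAP3B are near-identical copies, and how their reads were split is uncertain. The call of CNTNAP3B against Ctrl cells was lost without any 1 of the p53 KO libraries or Ctrl replicate 1 (adjusted p = 0.0585 to 0.107).

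FOXP1, a forkhead repressor and relative of FOXP2, was the one gene of this list called against parental cells, to which a second was added without any 1 of 7 libraries, all but p53 KO replicates 1 and 3. It had 637, 525 and 354 counts in p53 KO, 359, 317 and 266 in parental and 193, 316 and 272 in Ctrl libraries, and rose by 0.63 on the log2 scale against parental (SE 0.10, adjusted p = 0.00148) and 0.91 against Ctrl cells (SE 0.10, adjusted p = 7.09e-05). KCNAB2, a Kv1 beta subunit, was the other of the 5 called against Ctrl cells (0.79, SE 0.08, adjusted p = 4.42e-05). It was not called against parental cells (0.08, SE 0.08, adjusted p = 0.522), and was called lower in Ctrl than in parental cells (-0.70, SE 0.08, adjusted p = 0.000225). In that comparison 29.2% of all genes tested were called, and 18.1% against parental cells. TCF4, a transcription factor of neural development that did not pass the filter, had 19, 9 and 11 counts in p53 KO libraries and at most 2 in the others. FOXP2, which did not pass it either, had 0 counts in each p53 KO library, 1, 4 and 2 in parental and 2, 7 and 7 in Ctrl libraries. Both were named after their values were seen.

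The GM-CSF system was uneven. CSF2, which encodes the ligand GM-CSF, had 55, 65 and 59 counts in p53 KO, 16, 26 and 23 in parental and 6, 5 and 6 in Ctrl libraries. The 3 groups did not overlap, and CSF2 rose by 1.43 on the log2 scale against parental (SE 0.25, adjusted p = 0.0027) and 3.35 against Ctrl cells (SE 0.32, adjusted p = 2.96e-05). CSF2RB, the beta chain that the receptor needs to signal, had 1 count in each of 1 parental, 1 p53 KO and 1 Ctrl library and 0 in the other 6. IL3RA, the alpha chain of the related interleukin-3 receptor, had 0 counts in all 9 libraries. Ligand and alpha chain were therefore both read in p53 KO cells, while the beta chain was at or under the floor in every library.

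**Figure D3:**
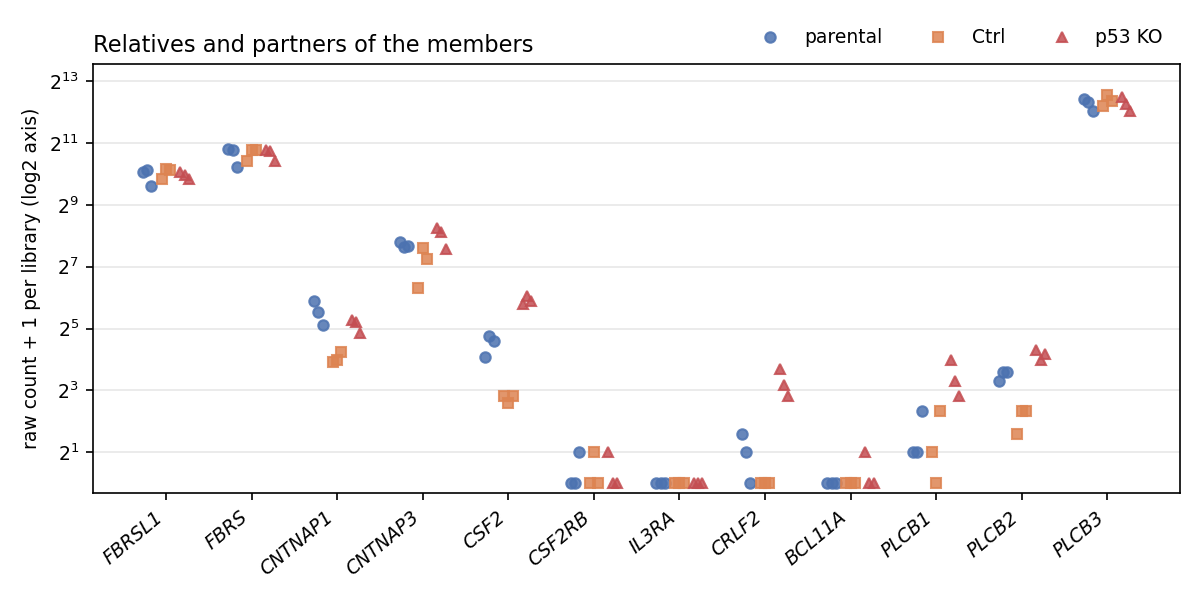
Raw counts plus 1 on a log2 axis for relatives and partners of the 5 genes, 1 point per library in parental, Ctrl and p53 KO groups. FBRSL1, FBRS and PLCB3 overlap between the groups, CSF2 is highest in the 3 p53 KO libraries (55 to 65 counts), and CSF2RB, IL3RA and BCL11A lie at 0 or 1 count throughout.

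Downstream of that receptor, 16 of the 19 genes of JAK2-STAT5 signalling were tested. Against parental cells 5 were called, 1 higher and 4 lower, and against Ctrl cells 9, 4 higher and 5 lower. The share over all genes tested was 18.1% against parental and 29.2% against Ctrl cells. PIM2, a survival kinase and STAT5 target, had 357, 307 and 269 counts in p53 KO, 228, 254 and 220 in parental and 75, 99 and 106 in Ctrl libraries. It rose by 0.37 on the log2 scale against parental (SE 0.10, adjusted p = 0.029) and by 1.70 against Ctrl cells (SE 0.11, adjusted p = 1.81e-06). PIM1, its relative, had 624, 482 and 382 counts in p53 KO, 636, 607 and 562 in parental and 787, 1224 and 1003 in Ctrl libraries, with log2 fold changes of -0.34 (SE 0.09, adjusted p = 0.0223) and -1.06 (SE 0.09, adjusted p = 9.25e-06). These 2 targets of the pathway thus moved in opposite directions. STAT5B (-0.29 and -0.27) and the adaptor SHC1 (-0.23 and -0.21) were called lower against both controls. SOCS2 and SOCS3, feedback inhibitors induced by STAT proteins, were called higher against Ctrl and not against parental cells, and of STAT5A there was at most 1 count in any library.

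The calls in this list against parental cells rested on single libraries. None of the 5 was left without parental replicate 1, p53 KO replicate 2 or p53 KO replicate 3, and 9 were called without Ctrl replicate 1. The call of PIM2 was lost without any 1 of the 6 libraries of the comparison (adjusted p = 0.0528 to 0.131) and that of PIM1 without parental replicate 1 or 3 or p53 KO replicate 2 or 3 (adjusted p = 0.068 to 0.0918). STAT5B lost its call without 7 single libraries against parental (adjusted p = 0.0539 to 0.149) and without 8 against Ctrl cells (0.0607 to 0.13), in both all but Ctrl replicate 1 and, in the first, Ctrl replicate 3. SHC1 lost it without each of the p53 KO libraries and parental replicate 1 in both comparisons, and also without parental replicate 2 in the first and Ctrl replicate 2 in the second (adjusted p = 0.0561 to 0.12 and 0.0525 to 0.134). Those of PIM2 and PIM1 against Ctrl cells held without each library.

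BCL11A, the close relative of BCL11B, had 1 count in 1 p53 KO library and 0 in the other 8. Of the 18 genes of the BCL11 family and NuRD, 16 were tested. Against parental cells 1 was called, NR2F2, a COUP-TF nuclear receptor that binds BCL11 proteins, at -0.30 on the log2 scale (SE 0.08, adjusted p = 0.0255) and of -0.41 against Ctrl cells (SE 0.08, adjusted p = 0.00279). It was lost against parental cells without any 1 of the p53 KO libraries or parental replicate 1 or 2 (adjusted p = 0.0548 to 0.106). Without Ctrl replicate 1, 7 genes of this list were called against parental cells. Against Ctrl cells, SIRT1 (0.82) and RBBP4 (0.25) were called higher and MTA3 (-0.32) lower beside NR2F2, 4 genes in all. Over all genes tested, 18.1% were called against parental and 29.2% against Ctrl cells.

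Of the 23 genes of the BAF chromatin complex, 21 were tested, with 6 called against parental cells (2 higher, 4 lower) and 10 against Ctrl cells (5 higher, 5 lower). The background over all genes tested was 18.1% against parental and 29.2% against Ctrl cells. A pair of subunits moved most among those called against both. SMARCA2 (BRM), one of its alternative ATPases, had 26, 22 and 27 counts in p53 KO, 10, 8 and 4 in parental and 6, 11 and 12 in Ctrl libraries, and rose by 1.72 (SE 0.32, adjusted p = 0.00392) and 1.34 on the log2 scale (SE 0.31, adjusted p = 0.00698). SMARCA2 passed the filter on low counts through the p53 KO libraries, where it was high, so that a rise was the change that could be tested. SMARCD3, a variant subunit of muscle and neurons, had 6, 11 and 5 counts in p53 KO, 14, 23 and 22 in parental and 35, 44 and 38 in Ctrl libraries. Its log2 fold changes were -1.46 (SE 0.36, adjusted p = 0.016) and -2.43 (SE 0.32, adjusted p = 0.000197). ACTL6A, the subunit that neurons exchange for ACTL6B, had -0.37 (SE 0.06, adjusted p = 0.00125) and -0.51 (SE 0.06, adjusted p = 8.19e-05), and BCL7B had 0.38 and 0.30. ACTL6B itself had 0 counts in all 9 libraries, so that no exchange for it was read.

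In the same list, the call of SMARCD3 against parental cells was lost without parental replicate 2 or 3 or p53 KO replicate 1 or 3 (adjusted p = 0.0532 to 0.0778). BCL7B lost its call against parental cells without any parental library or p53 KO replicate 3 (adjusted p = 0.0674 to 0.0888) and against Ctrl cells without any 1 of 7 libraries, all but p53 KO replicate 1 and Ctrl replicate 1 (0.0612 to 0.135). The number called against Ctrl cells was 3 without p53 KO replicate 2, and against parental cells 3 without parental replicate 2 or p53 KO replicate 3. Without Ctrl replicate 1, 13 were called against Ctrl and 8 against parental cells. SMARCA2 and ACTL6A kept their calls without each library.

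Among the relatives of PLCB4, PLCB3 was the abundant one, with 4152 to 5772 counts in p53 KO, 4241 to 5440 in parental and 4727 to 6039 in Ctrl libraries. Its log2 fold changes were -0.03 against parental (SE 0.08, adjusted p = 0.807) and -0.15 against Ctrl cells (SE 0.08, adjusted p = 0.174). PLCB2, known from blood and taste cells, had 19, 15 and 17 counts in p53 KO, 9, 11 and 11 in parental and 2, 4 and 4 in Ctrl libraries, with 0.67 (SE 0.28, adjusted p = 0.131) and 2.28 (SE 0.35, adjusted p = 0.000588). PLCB1, which did not pass the filter, had 15, 9 and 6 counts in p53 KO, 1, 1 and 4 in parental and 1, 0 and 4 in Ctrl libraries. With no filter beyond 1 count, PLCB1 had an adjusted p of 0.0128 against parental and 0.00386 against Ctrl cells in edgeR. All 3 p53 KO libraries were above all 6 control libraries for PLCB1 and PLCB2, while for PLCB4 the count rule required this. PLCB2 passed the filter on low counts through the p53 KO libraries, where it was high, so that a rise was the change that could be tested.

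PLCG2, a phospholipase C that tyrosine kinases switch on in blood cells, had 544, 456 and 324 counts in p53 KO, 88, 106 and 94 in parental and 14, 26 and 19 in Ctrl libraries. It rose by 2.14 against parental (SE 0.12, adjusted p = 1.89e-06) and by 4.44 against Ctrl cells (SE 0.15, adjusted p = 1.99e-08). Of the 8 phospholipase C genes tested, 2 were called against parental cells, PLCG2 and PLCD3 (0.27), and 3 against Ctrl cells, PLCB2, PLCG2 and PLCG1 (0.27), all higher. Over all genes tested the shares were 18.1% and 29.2%. PLCD3 was lost without any 1 of the 6 libraries of its comparison (adjusted p = 0.0606 to 0.11), and PLCG1 without p53 KO replicate 2 or Ctrl replicate 2 (0.0867 to 0.0938). Without Ctrl replicate 1, 4 were called against parental cells.

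Gq proteins and the output of phospholipase C beta came to 24 genes, 18 of them tested. Against parental cells 3 were called, all higher, and against Ctrl cells 9, 6 higher and 3 lower. The share over all genes tested was 18.1% and 29.2%, so that the first number was close to its background. PRKCQ, a diacylglycerol-activated protein kinase C of T cells and muscle, had 59, 44 and 33 counts in p53 KO, 2, 7 and 8 in parental and 2, 5 and 2 in Ctrl libraries, and rose by 2.91 (SE 0.35, adjusted p = 0.000279) and 3.82 on the log2 scale (SE 0.39, adjusted p = 4.28e-05). NFATC2, a calcium-regulated transcription factor, had 31, 26 and 15 counts in p53 KO, 7, 3 and 6 in parental and 2, 4 and 4 in Ctrl libraries, and rose by 2.09 (SE 0.32, adjusted p = 0.00127) and 2.76 (SE 0.36, adjusted p = 0.000192). GNA15, a Gq-class alpha subunit of blood and epithelial cells, had 0.44 (SE 0.10, adjusted p = 0.012) and 0.32 (SE 0.10, adjusted p = 0.0342). Its call was lost against parental cells without parental replicate 1 or 3 or p53 KO replicate 3 (adjusted p = 0.05002 to 0.0593) and against Ctrl cells without any 1 of 8 libraries, all but Ctrl replicate 1 (0.0501 to 0.111). Without Ctrl replicate 1, 5 genes of this list were called against parental and 12 against Ctrl cells. PRKCQ and NFATC2 passed the filter on low counts through the p53 KO libraries, where they were high, so that a rise was the change that could be tested.

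**Figure D4:**
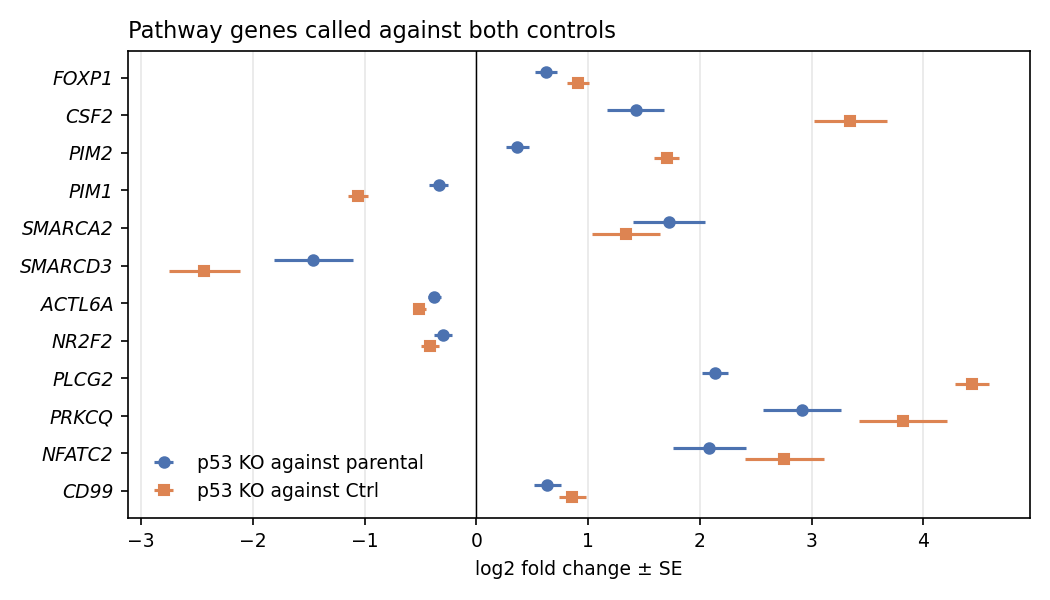
Log2 fold changes of 12 pathway genes in p53 KO cells against parental (circles) and against Ctrl cells (squares), with SE as horizontal bars. Each was called in 1 direction against parental and Ctrl cells alike, with SMARCD3 at -1.46 and -2.43, PRKCQ at 2.91 and 3.82 and PLCG2 at 2.14 and 4.44.

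CSF2RA lies in PAR1, and 9 of 14 other genes of that region were tested. The background was 18.1% of all genes called against parental and 29.2% against Ctrl cells. CD99, a cell-surface glycoprotein, was the one called, higher against both controls (0.64, SE 0.12, adjusted p = 0.00398, and 0.86, SE 0.12, adjusted p = 0.000335). It had 1729, 1397 and 1317 counts in p53 KO, 982, 939 and 862 in parental and 759, 871 and 738 in Ctrl libraries, so that the p53 KO libraries lay above all others. Without Ctrl replicate 1 or 3, 2 genes of the region were called in each comparison. CRLF2, the receptor chain for thymic stromal lymphopoietin, did not pass the filter and was named after its values were seen. It had 12, 8 and 6 counts in p53 KO, 2, 1 and 0 in parental and 0 in each Ctrl library, the same direction as CSF2RA in far fewer reads.

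The nearest tested genes on either side, up to 5 on each, were compared to see whether the surroundings of the 5 genes moved with them. Of 48 neighbours, 13 were called against parental cells (6 higher, 7 lower, over a background of 18.1%) and 16 against Ctrl cells (7 higher, 9 lower, over a background of 29.2%). They were unevenly placed. Of the 10 around AUTS2, at distances of 1765 to 2603 kb, 5 were higher against parental and 7 against Ctrl cells and 0 lower in either (0 lower also at an unadjusted p under 0.05 and in DESeq2), with median log2 fold changes of 0.33 and 0.53. Of the 10 around CNTNAP2, at 276 to 1835 kb, 7 were lower against parental and 8 against Ctrl cells and 0 higher in either (likewise 0 at an unadjusted p under 0.05 and in DESeq2), with medians of -0.40 and -0.75. The called neighbours of AUTS2 thus moved in the direction of AUTS2, and those of CNTNAP2 in the direction opposite to CNTNAP2, on the same chromosome. The controls differed here too, over a background of 20.3%. Near AUTS2, 2 were called lower and 0 higher in Ctrl than in parental cells (median -0.21). Near CNTNAP2, 3 were called higher and 0 lower (median 0.15, 1 called higher in DESeq2). Copy number was not measured here.

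Near AUTS2, SBDS, a ribosome assembly factor, had 0.40 (SE 0.06, adjusted p = 0.00158) and 0.59 (SE 0.06, adjusted p = 6.14e-05), and TYW1, a tRNA-modifying enzyme, 0.36 (SE 0.08, adjusted p = 0.00866) and 0.51 (SE 0.08, adjusted p = 0.000586). The pseudogene SBDSP1 (0.48 and 0.70) is a copy of SBDS on the other side of AUTS2, and how reads were split between the 2 is uncertain. STAG3L4 (0.39 and 0.46) was also called against both, and lost its call without any 1 of the 6 libraries against parental cells (adjusted p = 0.0529 to 0.137) and without p53 KO replicate 1 or Ctrl replicate 2 against Ctrl cells (0.0508 to 0.0558). TYW1B was called only against parental cells (0.59, adjusted p = 0.0469) and STAG3L3 only against Ctrl cells (0.82, adjusted p = 0.00141). By their names these are related to TYW1 and STAG3L4, and both were named after their values were seen. Whether such pairs share reads was not tested, so that the called neighbours of AUTS2 may not all be independent. DESeq2 called 3 of the 10 neighbours of AUTS2 against parental cells.

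Near CNTNAP2, CUL1, a ubiquitin ligase scaffold, had -0.39 (SE 0.07, adjusted p = 0.00306) and -0.57 (SE 0.07, adjusted p = 0.000153), and PDIA4, a chaperone of the endoplasmic reticulum, -0.40 (SE 0.07, adjusted p = 0.00298) and -0.46 (SE 0.07, adjusted p = 0.000639). EZH2, the histone methyltransferase of Polycomb repressive complex 2, had -0.23 (SE 0.07, adjusted p = 0.0408) and -0.36 (SE 0.07, adjusted p = 0.00223), and its call against parental cells was lost without any 1 of 7 libraries, all but Ctrl replicates 1 and 3 (adjusted p = 0.051 to 0.151). On the far side, ARHGEF5 had -0.75 (SE 0.09, adjusted p = 0.000344) and -0.86 (SE 0.09, adjusted p = 5.63e-05), with its pseudogene relative ARHGEF34P at -0.83 and -0.85. OR2A1-AS1 (-1.16 and -1.66) and RP4-545C24.1 (-1.15 and -1.66) had nearly the same values, and whether they share reads was not tested.

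Around the other 3 genes few neighbours were called. The 8 around CSF2RA are, all but ASMTL-AS1, also among the PAR1 genes above, so that these results are not separate from those. Of the 8, edgeR called 0 in either comparison (1 in each had an unadjusted p under 0.05, and DESeq2 called 0). Of the 10 around BCL11B, 0 were called against parental cells (1 at an unadjusted p under 0.05, 0 in DESeq2) and 1 against Ctrl cells, CCDC85C (-0.35, SE 0.07, adjusted p = 0.00327). Of the 10 around PLCB4, TMX4 was called against parental cells (0.46, SE 0.14, adjusted p = 0.0414), which was lost without any 1 of the parental libraries, p53 KO replicates 1 and 2 or Ctrl replicate 2 (0.0596 to 0.166), and 0 were called against Ctrl cells (1 at an unadjusted p under 0.05, 0 in DESeq2).

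**Figure D5:**
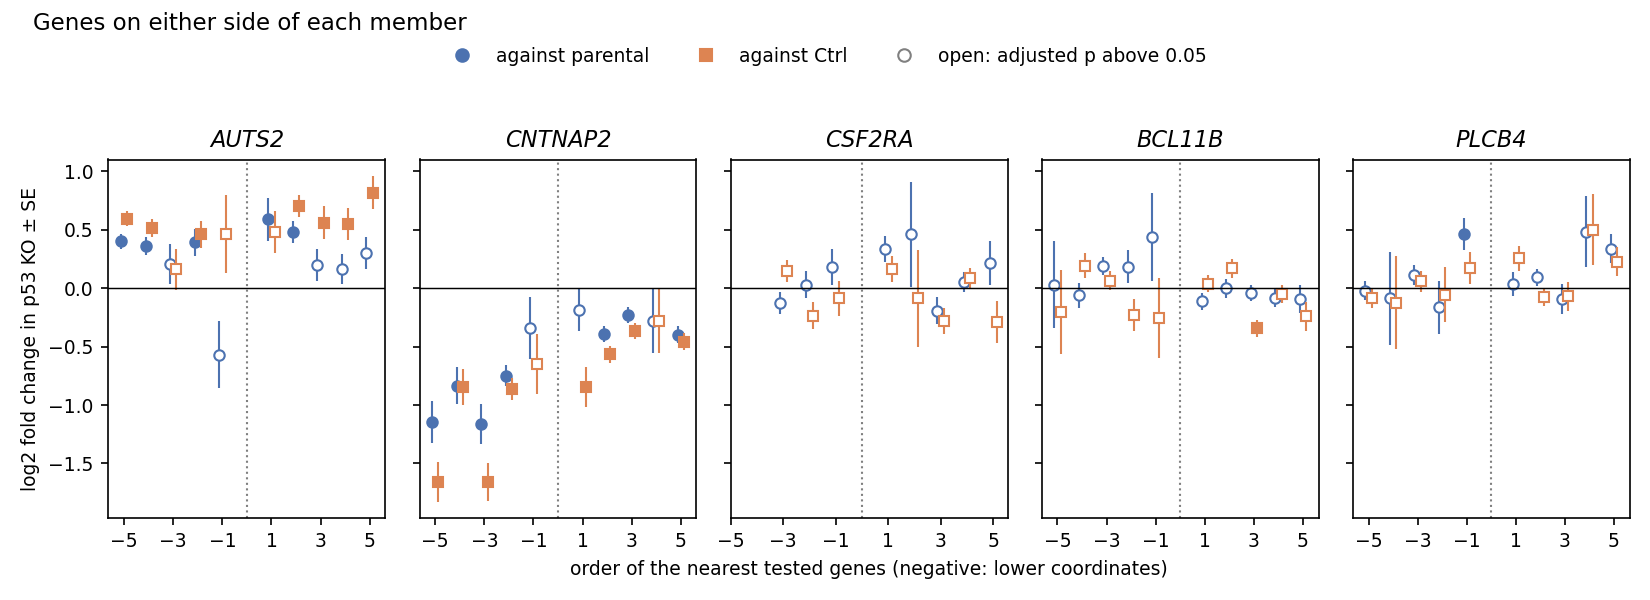
Log2 fold changes with SE of up to 5 tested genes on each side of each of the 5 genes in p53 KO cells against parental (circles) and Ctrl cells (squares), by order of distance, with filled symbols for an adjusted p of at most 0.05. The values lie at -0.57 to 0.82 around AUTS2 and at -1.66 to -0.19 around CNTNAP2, and mostly open symbols surround the other 3.

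Since the 5 genes are known from neurons, T lymphocytes and myeloid cells, markers of these cells were read in the same libraries. Squamous epithelial markers were by far the most abundant, with summed levels of 15930 to 16610 CPM in p53 KO, 16890 to 20140 in parental and 11520 to 13790 in Ctrl libraries, led by EGFR, which A431 is known to carry in many copies, and followed, by the mean over the 3 groups, by the junction protein JUP. Of the 12 squamous markers, 11 were tested. Called higher were 3 against parental and 3 against Ctrl cells, and lower 1 and 2 (background 18.1% and 29.2%). KRT6A (2.35 and 2.75) and PKP1 (0.61 and 0.67) were higher against both and CDH1 (-0.32 and -0.33) lower, all named after their values were seen. The calls of CDH1 were lost without some single libraries. Without Ctrl replicate 1, 8 of the squamous markers were called against parental and 7 against Ctrl cells. The keratin KRT14, which did not pass the filter and was named after its values were seen, had 13, 7 and 8 counts in p53 KO, 0, 0 and 1 in parental and 2, 3 and 1 in Ctrl libraries. Of 20 neuronal markers, 4 were tested and 9 had 0 counts in all libraries, including DCX, SNAP25, STMN2, NEFL, NEFM and GAP43, and the list summed to 12.1 to 13.1 CPM in p53 KO, 13.1 to 15.8 in parental and 9.89 to 10.6 in Ctrl libraries. Its most abundant members over all 3 groups were GAD1, at 8.30 ± 0.545 CPM in p53 KO, 10.9 ± 0.427 in parental and 6.57 ± 0.419 in Ctrl cells, and MAP2, called lower against Ctrl cells (-1.22, SE 0.29, adjusted p = 0.00802). GAD1 was called lower against parental (-0.40, SE 0.10, adjusted p = 0.0149) and higher against Ctrl cells (0.34, SE 0.10, adjusted p = 0.0249). TUBB3, a neuronal tubulin above MAP2 in p53 KO and parental cells and named after its values were seen, was called higher against Ctrl cells (1.65, SE 0.23, adjusted p = 0.000349) and not against parental cells (0.37, SE 0.20, adjusted p = 0.237). The neuronal sum was thus no higher in p53 KO than in parental libraries and higher than in Ctrl libraries. Of 10 glial markers, 5 were at 0 in all libraries, GFAP, OLIG1, OLIG2, SOX10 and MOG, and the list summed to 52.6 to 59.1 CPM in p53 KO, 53.4 to 56.4 in parental and 38.9 to 47.5 in Ctrl libraries, most of it MBP, followed by ALDH1L1. ALDH1L1 was called higher against Ctrl (1.55, SE 0.14, adjusted p = 1.78e-05) and not against parental cells (-0.01, SE 0.12, adjusted p = 0.978).

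Of 14 T lymphocyte markers, 7 were at 0 in all libraries, among them CD3E, PTPRC and TRAC, and 1 was tested. This was LCK, a kinase of T cell receptor signalling, with 28, 22 and 18 counts in p53 KO, 6, 4 and 7 in parental and 1, 0 and 2 in Ctrl libraries, which rose by 1.93 against parental (SE 0.35, adjusted p = 0.00326) and by 4.30 against Ctrl cells (SE 0.50, adjusted p = 9.62e-05). LCK, too, passed the filter only through the p53 KO libraries, so that a rise was the change that could be tested. The next most abundant, CD8A, had 7 counts over the 3 p53 KO and 19 over the 6 control libraries. The summed level was 1.07 to 1.11 CPM in p53 KO, 0.383 to 0.462 in parental and 0.176 to 0.343 in Ctrl libraries. It was higher in every p53 KO library than in any control library, and most of it in p53 KO cells was LCK. BCL11B was therefore read without counts of CD3E or TRAC, while LCK was higher.

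Of 12 myeloid markers, 5 were tested, and SPI1, CD163 and FCGR3A were at 0 in all libraries. The sum was 4.98 to 6.07 CPM in p53 KO, 3.74 to 4.74 in parental and 2.75 to 3.65 in Ctrl libraries, led by CSF1R, the receptor of M-CSF (2.60 ± 0.0437, 1.83 ± 0.250 and 1.01 ± 0.286 CPM, SD, n = 3), and CD68. CSF1R was called higher against Ctrl cells (1.37, SE 0.21, adjusted p = 0.000551) and not against parental cells (0.50, SE 0.19, adjusted p = 0.0943). Against parental cells, LYZ was called higher (2.93, SE 0.52) and CD33 lower (-2.13, SE 0.42), both named after their values were seen. LYZ passed the filter only through the p53 KO libraries and CD33 only through the parental libraries, so that each could be tested in that direction alone. The summed level of the list was higher in every p53 KO library than in any control library. CSF2RA was thus read in cells in which the defining myeloid factor SPI1 had no count, while other markers of the list, such as LYZ, were higher.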

How the data were processed

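The data are poly(A) RNA-Seq libraries of A431 parental, Ctrl and p53 KO cells, 3 per group. Per the submitters' processing notes and the study's methods, the authors checked paired-end reads of 75 bp with FastQC, aligned them to GRCh38 with STAR 2.5.1b and used featureCounts with Ensembl release 85 to count them on genes. They deposited raw counts of 58051 genes without normalization. The libraries were strand-specific, and the strand setting of the counting is not given in the sources used here. The symbol follows the Ensembl number in each identifier.

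Tests were run with edgeR 4.0.16 and, as an alternative, DESeq2 1.42.0, in R 4.3.3. Genes were filtered with filterByExpr at a minimum count of 10, which left 14513, and scaled by TMM. All 9 libraries entered 1 model with a mean for each group, and contrasts were taken with the quasi-likelihood test, adjusted by Benjamini-Hochberg over the genes tested. A gene was called at an adjusted p of at most 0.05. Standard errors follow from the F statistic. Lower bounds divide the mean p53 KO CPM by 3 counts in the control library where these are worth most. Fits were tested on simulated data.

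The 5 genes, the lists and the rules were chosen with earlier results of these data known. Named genes were the 5, the other genes that met the count rule or just missed it, the 5 with the most similar profile, close relatives and partner chains, up to 4 further genes per list and all neighbours called the same way against parental and Ctrl cells, and the 2 most abundant of each marker list. Positions were taken from GENCODE release 44, which held 14397 of the tested genes, and upstream sequences from RefSeq on GRCh38.p14, where 4 of the 5 genes matched. Alternatives were other size factors, other filters, DESeq2, only the 2 groups compared, a log2 fold change beyond 1.5, the replicate number as a block, each library left out, and other count limits of the rule. Same-numbered libraries were checked for shared deviations. No sample was left out, and 1 further gene, not among the 11, is not reported here.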

Additional observations from a re-analysis of the deposited data

How the results depend on the processing

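Of the 152 list genes, the 20 called against parental cells became 39 with only the 2 groups compared, 4 with a log2 fold change beyond 1.5 required, and 9 to 42 with 1 library left out. The 45 against Ctrl cells became 7 with that fold change, and 29 to 55 with 1 library left out. The 33 between the controls became 19 with only the 2 groups, 5 with that fold change, and 14 to 43 with 1 library left out. Of the 48 neighbours, 0 were beyond that fold change against parental (13 without it) and 2 against Ctrl cells (16 without it), and leaving out 1 library gave 9 to 16 and 15 to 18. The cause was not tested, except that a second limit passes fewer genes by construction. Replicate numbers did not pair the libraries (correlations of deviations between same-numbered libraries -0.348 to 0.0409, and not every library correlated best with its own number). With the replicate number as a block, 11 list genes were called against parental, 33 against Ctrl and 19 between the controls, and 9 and 16 neighbours. At least 10 counts in p53 KO libraries would select 18 genes, at least 50 would select 4 and 0 counts in controls 2 (CNTNAP2 and BCL11B) in place of 11, counts scaled to the median library would select 9, and leaving out 1 library 11 to 13. The lower bounds of the 5 genes moved by less than 1 SD in the alternatives run, and no called result changed its direction, while values near 0 such as those of FBRS and FBRSL1 changed sign between alternatives. Depth limits the 5 genes in control cells, where 0 is not told apart from 3 counts.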
